A study of Mus musculus with 4 samples.

Results

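The genes followed here encode proteins of the primary (azurophil) granule of neutrophil precursors, together with their activator, their inhibitors and genes that accompany them in promyelocytes. They are 10 of the 24346 genes in each deposited table and were chosen by symbol: *Mpo*, *Elane*, *Prtn3*, *Ctsg*, *Prss57*, *Ms4a3*, *Ctsc*, *Cst7*, *Serpinb1a* and *Igfbp4*. All 10 passed the filter on low values that left 12121 genes to test. The libraries came from *in vitro* MDSCs, immature myeloid cells able to suppress T cells, that had been grown from the bone marrow (BM) of female C57BL/6J mice aged 6 to 8 weeks. The Control group (n = 2) received 40 ng/ml GM-CSF for 4 days, and the G-CSF group (n = 2) received the same GM-CSF and 5 ng/ml G-CSF over the same 4 days. The comparison asked which transcripts differ when G-CSF is present during differentiation. The study calls the 2 cultures of a group biological replicates and does not say whether they came from separate mice, so the p-values measure the spread between these cultures.

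Primary granules are the earliest granules of the neutrophil lineage and are filled at the promyelocyte stage. Their cargo includes myeloperoxidase, which makes hypochlorous acid from hydrogen peroxide and chloride, and serine proteases that are stored in active form after cathepsin C has removed a short leading peptide. Transcription of this cargo largely stops as promyelocytes become myelocytes, when genes of the secondary granules come on, and genes of the tertiary granules follow later still. The transcripts therefore mark a stage of maturation, while the proteins persist in mature neutrophils.

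Values are in FPKM, reads scaled to transcript length and library size, so levels of different genes can be compared per length. Depth, estimated from the steps that single reads leave in the lowest values, was 13.4 and 14.15 M reads in the Control libraries and 12.45 and 15.7 M in the G-CSF libraries. The least abundant of the 10 genes, *Prss57*, had at least 170 estimated reads in every library, and the others had at least 345. Over 10557 genes that reached 1 FPKM in all 4 libraries, which include small RNAs and genes without a usable transcript length that were not tested, the Control libraries correlated at r = 0.9953 and the G-CSF libraries at r = 0.9952 (Pearson). Libraries of different groups correlated at 0.9856 to 0.9883. The points of these correlations are genes and not samples.

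The cell labels were compared with marker genes. A protocol field of the labels names liver tissue as the source of the RNA, whereas the sample names and the study name cultured MDSCs. Of 7 hepatocyte markers, 5 were listed at 0 in every library, *Alb* among them, and the most abundant, *Apoa2*, reached 1.42 FPKM at most. The myeloid markers were high. *S100a8*, a calcium-binding protein of neutrophils and monocytes, stood at 35613 and 30633 FPKM in Control and at 25812 and 25565 FPKM with G-CSF. *Ly6c2*, a surface marker of monocytes, stood at 1105 and 1148 FPKM in Control and at 999.6 and 1066 FPKM with G-CSF. These are bulk libraries of mixed cultures, in which fewer cells of a type and less RNA per cell cannot be told apart.

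Most of the 10 genes were higher with G-CSF. Of them, 9 were higher at an adjusted p under 0.05 and 1, *Ctsc*, did not pass, and 5 of the 9 rose more than 2-fold (limma with Benjamini-Hochberg adjustment over all genes tested). Over all 12121 genes tested, 12.3% were higher and 11.1% lower at an adjusted p under 0.05. With the added limit of 2-fold, 0.536% were higher and 0.891% lower. Without that limit the balance turned with upper-quartile scaling, from 1491 higher and 1350 lower to 1307 higher and 1527 lower. Both G-CSF values lay above both Control values in 9 of the 10 genes and in 33.4% of all genes tested. The median log2 fold change was 1.05 for the 10 genes and 0.001 for all genes tested. Their summed share of all FPKM was 0.232% and 0.222% in the Control libraries and 0.458% and 0.431% in the G-CSF libraries. The calls depended on how limma models the spread of the genes. With the variance prior held constant over expression levels (eBayes without trend), *Mpo*, *Ms4a3* and *Igfbp4* passed (adjusted p = 0.0381 each) and the other members did not, with adjusted p from 0.0503 (*Ctsg*) to 0.0799 (*Serpinb1a*) for those that had passed with the trend. Of all genes tested, 26 then passed in place of 2841, and 25 with the limit of 2-fold in place of 173.

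Single libraries and settings also moved these counts. The number of members that rose more than 2-fold was 7 without Control replicate 1 and 8 without G-CSF replicate 2. The number of all genes past an adjusted p of 0.05 was 1447 without Control replicate 1, 1767 without Control replicate 2 and 1536 without G-CSF replicate 1. With the limit of 2-fold it was 57 at a pseudocount of 1 FPKM and 76 among the 10486 testable genes that reached 1 FPKM in all 4 libraries. The balance of rises and falls past 2-fold moved as well, from 65 higher and 108 lower with all libraries to 75 and 76 without Control replicate 1 and to 42 and 114 without G-CSF replicate 1.

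**Figure D1:**
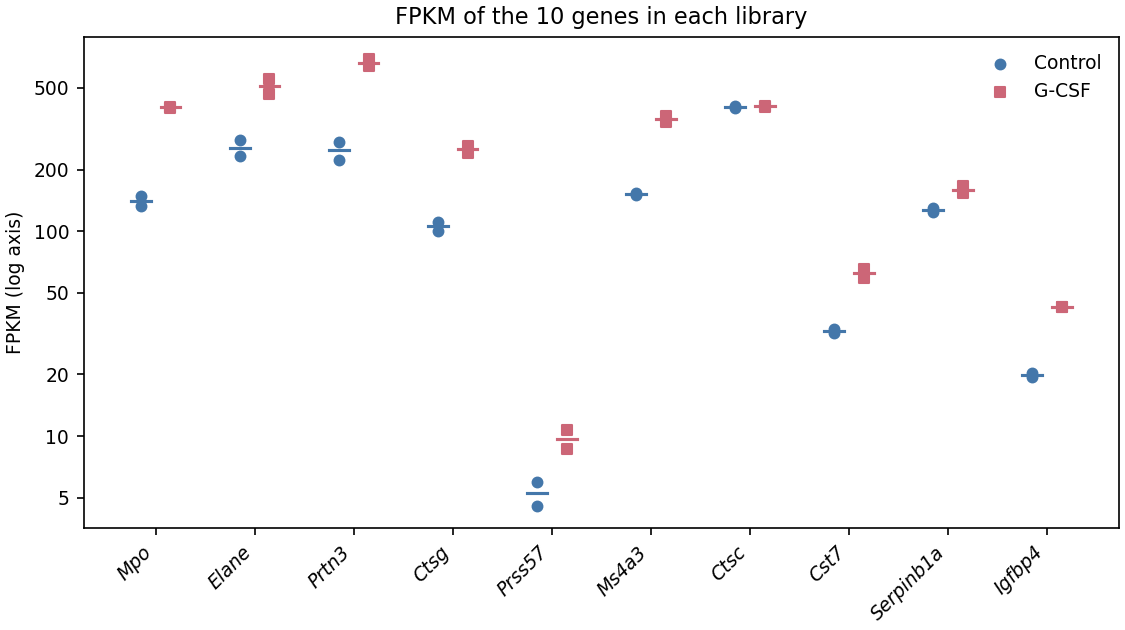
FPKM on a log axis of the 10 genes in the Control (circles) and G-CSF (squares) libraries, 1 point per library, with a bar at the mean of each group (n = 2). The G-CSF points lie above the Control points for 9 genes, and the groups overlap for *Ctsc*.

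*Mpo* encodes myeloperoxidase, the haem enzyme that is the hallmark of primary granules. It stood at 148 and 133 FPKM in Control and at 399 and 404 FPKM with G-CSF. Both G-CSF libraries were far above both Control libraries, and the replicates of a group lay close together. *Mpo* rose by 1.52 on the log2 scale (standard error 0.0598, adjusted p = 0.000149), the largest rise of the 10 genes and rank 26 among all genes tested in order of rise. *Mpo* lies on chromosome 11 (87793581 to 87804413, plus strand, GRCm38).

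*Elane*, *Prtn3*, *Ctsg* and *Prss57* encode the serine proteases of the granule. *Elane* encodes neutrophil elastase, which cleaves elastin and bacterial outer membrane proteins. Its level was 279.8 and 232 FPKM in Control and 549.9 and 467 FPKM with G-CSF. The groups did not overlap, although the replicates differed more than those of *Mpo*. The rise of 0.99 on the log2 scale (standard error 0.108, adjusted p = 0.00453) was just short of 2-fold. When each library was left out in turn it ranged from 0.86 to 1.13, past 2-fold without Control replicate 1 (1.13) and without G-CSF replicate 2 (1.11).

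*Prtn3* encodes proteinase 3, a close relative of elastase and the main antigen of antineutrophil cytoplasmic antibodies in granulomatosis with polyangiitis. Its level was 273 and 224 FPKM in Control and 691 and 637 FPKM with G-CSF. It was the highest of the 10 genes in both G-CSF libraries, whereas *Ctsc* was the highest in both Control libraries. *Prtn3* rose by 1.42 on the log2 scale (standard error 0.0958, adjusted p = 0.0014). The ratio of *Prtn3* to *Elane* was 0.976 and 0.966 in Control, against 1.26 and 1.36 with G-CSF. The pair was thus near parity in Control, and *Prtn3* exceeded *Elane* in both G-CSF libraries; this difference in ratio was not tested.

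*Ctsg* encodes cathepsin G, a protease with chymotrypsin-like specificity. Its level was 111 and 101 FPKM in Control and 241 and 261 FPKM with G-CSF. Both G-CSF libraries were above both Control libraries. The rise was 1.25 on the log2 scale (standard error 0.0633, adjusted p = 0.000423). *Prss57* encodes neutrophil serine protease 4, which cuts after arginine. It was the lowest member, at 5.94 and 4.57 FPKM in Control and at 10.8 and 8.70 FPKM with G-CSF. The groups did not overlap, but the spread within each was wide for the size of the change. *Prss57* rose by 0.88 on the log2 scale (standard error 0.157, adjusted p = 0.0133), with a range from 0.69 to 1.07 when each library was left out in turn. The 4 protease genes made up 0.0999% and 0.0873% of the FPKM of the Control libraries and 0.232% and 0.213% of that of the G-CSF libraries.

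The activator did not share this rise. *Ctsc* encodes cathepsin C (dipeptidyl peptidase 1), the lysosomal enzyme that trims the granule serine proteases to their active form. It stood at 399 and 406 FPKM in Control and at 409.9 and 403 FPKM with G-CSF. The values of the groups interleaved. The log2 fold change was 0.01 with a 95% confidence interval from -0.09 to 0.12 (adjusted p = 0.835), and it was -0.006 after upper-quartile scaling. The ratio of *Prtn3* to *Ctsc* was 0.684 and 0.551 in Control, against 1.69 and 1.58 with G-CSF, so that the order of these transcripts was reversed between the groups.

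Inhibitors were represented by *Cst7* and *Serpinb1a*. *Cst7* encodes cystatin F, an inhibitor of cysteine proteases that enters lysosomes and, once trimmed, restrains cathepsin C. Its level was 33.2 and 31.9 FPKM in Control and 65.7 and 59.0 FPKM with G-CSF. Both G-CSF libraries were well above both Control libraries. *Cst7* rose by 0.93 on the log2 scale (standard error 0.0647, adjusted p = 0.00161), with a range from 0.86 to 1.01 when each library was left out, and it passed 2-fold only without G-CSF replicate 2. *Serpinb1a* encodes a cytosolic inhibitor of elastase, proteinase 3 and cathepsin G that protects neutrophils from their own proteases. Its level was 130.5 and 124 FPKM in Control and 166 and 153 FPKM with G-CSF. The groups were separate, but the gap was small. *Serpinb1a* rose by 0.33 on the log2 scale (standard error 0.055, adjusted p = 0.0115), rank 1193 in order of rise, whereas the other 8 members that rose ranked between 26 and 100. The ratio of *Elane* to *Serpinb1a* was 2.14 and 1.87 in Control, against 3.32 and 3.05 with G-CSF.

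*Ms4a3* and *Igfbp4* encode no granule protease. *Ms4a3* encodes a membrane protein of the MS4A family that marks granulocyte and monocyte progenitors. It stood at 153 and 150.1 FPKM in Control and at 364 and 341 FPKM with G-CSF. The Control values nearly coincided and both G-CSF values were more than 2-fold above them. *Ms4a3* rose by 1.22 on the log2 scale (standard error 0.0483, adjusted p = 0.000149). *Igfbp4* encodes a secreted protein that binds insulin-like growth factors. Its level was 20.3 and 19.5 FPKM in Control and 42.7 and 42.6 FPKM with G-CSF. The replicates were almost equal within each group, and the groups were far apart. The rise was 1.10 on the log2 scale (standard error 0.0522, adjusted p = 0.000353).

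In Control the order from high to low was *Ctsc*, *Elane*, *Prtn3*, *Ms4a3*, *Mpo*, *Serpinb1a*, *Ctsg*, *Cst7*, *Igfbp4* and *Prss57* by group mean. *Elane* and *Prtn3* lay close together, with means of 256 ± 34.1 and 248 ± 35.0 FPKM (SD, n = 2 each). *Elane* was slightly the higher in both Control libraries, where the ratio of *Prtn3* to *Elane* was 0.976 and 0.966. *Ms4a3* and *Mpo* stood at 152 ± 2.33 and 140.3 ± 10.97 FPKM (SD, n = 2 each), with *Ms4a3* the higher in both Control libraries. These differences between genes were not tested. With G-CSF the order began with *Prtn3* and *Elane*, at 664.5 ± 38.2 and 509 ± 58.4 FPKM (SD, n = 2 each). *Ctsc* and *Mpo* then lay side by side at 407 ± 4.62 and 402 ± 3.68 FPKM (SD, n = 2 each). Few 75-base stretches of the members' transcripts occurred also in transcripts of other genes. Of the 75-base windows of the members' transcripts, 0.3% of those of *Serpinb1a* occurred also in *Serpinb1b* and 0.4% of those of *Igfbp4* in other genes, and the other 8 members had 0 such windows.

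Other constituents of the primary granule did not follow the 10 genes. Of 9 tested genes for lysozyme, lysosomal hydrolases and cathepsin D, 5 were lower (*Lyz1*, *Lyz2*, *Hexa*, *Man2b1* and *Fuca1*) and 4 did not pass, with a median log2 fold change of -0.19. *Lyz2*, the main lysozyme of myeloid cells and the most abundant gene of this list, stood at 8856 and 9416 FPKM in Control and at 6624 and 7222 FPKM with G-CSF. Both G-CSF values were below both Control values, a fall by 0.40 on the log2 scale (adjusted p = 0.0232). *Lyz1* fell by 0.40 (adjusted p = 0.0106) and *Hexa*, a subunit of hexosaminidase, by 0.23 (adjusted p = 0.0146). These products also occur in the lysosomes of monocytes and macrophages. Of the 5 falls, 1, that of *Lyz1*, passed whichever library was left out. *Bpi*, a bactericidal protein of primary granules, was listed at 0 in 3 libraries and at 0.09 FPKM in Control replicate 2.

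Genes of later granules were mostly lower. Of 15 secondary granule genes, 12 were lower, 1 was higher and 2 did not pass, and the median log2 fold change was -0.55. They made up 2.89% and 3.02% of the FPKM of the Control libraries and 1.97% and 2.18% of that of the G-CSF libraries. *Camp*, which encodes the antimicrobial peptide CRAMP, stood at 818 and 757 FPKM in Control and at 248 and 201 FPKM with G-CSF. It fell by 1.81 on the log2 scale (standard error 0.0987, adjusted p = 0.00055). *Ltf*, which encodes the iron-binding protein lactoferrin, stood at 2073 and 2266 FPKM in Control and at 758 and 996 FPKM with G-CSF. It fell by 1.32 (standard error 0.126, adjusted p = 0.00334). *Olfm4*, a glycoprotein of a subset of neutrophils, fell by 2.06 (adjusted p = 0.000768), and *Chil1*, a chitinase-like protein, by 1.07 (adjusted p = 0.000423), as did *Orm1*, an acute phase protein, by 1.87 (adjusted p = 0.0246). *Orm1* rested on 17 and 29 estimated reads in Control and on 3 and 10 with G-CSF; its log2 fold change was -1.54 (adjusted p = 0.0695) without Control replicate 2, -1.26 without G-CSF replicate 1 and -2.49 without G-CSF replicate 2. *Ngp*, the most abundant gene of the list over all 4 libraries, fell by 0.55 (adjusted p = 0.0141). *Chil3* exceeded *Ngp* in Control replicate 2 and in G-CSF replicate 2 and did not pass (log2 fold change -0.275, adjusted p = 0.211). The 1 gene of the list that was higher was *Hp*, which encodes haptoglobin. It stood at 329.9 and 305 FPKM in Control and at 480.2 and 505 FPKM with G-CSF, a log2 change of 0.63 (adjusted p = 0.00283).

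*Mpo* was also set against the secondary granule genes *Ltf* and *Camp*, both of which were lower. The ratio of *Mpo* to *Ltf* was 0.0714 and 0.0585 in Control, against 0.527 and 0.406 with G-CSF. The ratio of *Mpo* to *Camp* was 0.181 and 0.175 in Control, against 1.61 and 2.01 with G-CSF, so that *Mpo* exceeded *Camp* only in the G-CSF libraries. These ratios are per length and were not tested apart from the genes themselves. Of 13 tertiary granule and late neutrophil genes, 8 were lower and 5 did not pass, with a median of -0.40. *Retnlg*, a resistin-like protein of neutrophils, was at 228 and 211 FPKM in Control and at 48.8 and 80.3 FPKM with G-CSF, a fall by 1.81 (adjusted p = 0.00491). *Mmp25* and *Mmp9*, which encode matrix metalloproteinases, fell by 1.34 (adjusted p = 0.000382) and by 1.08 (adjusted p = 0.00571). Without the trend, *Mmp25* alone passed among the genes of both lists, and of all other listed genes described here besides the members only *Plac8* and *Muc13* did. When each library was left out in turn, 8 of the 12 secondary granule genes and 5 of the 8 tertiary and late genes that were lower passed every time. Over all listed genes tested, 43 of the 89 genes that passed did so; most of the others had changed by less than 2-fold.

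**Figure D2:**
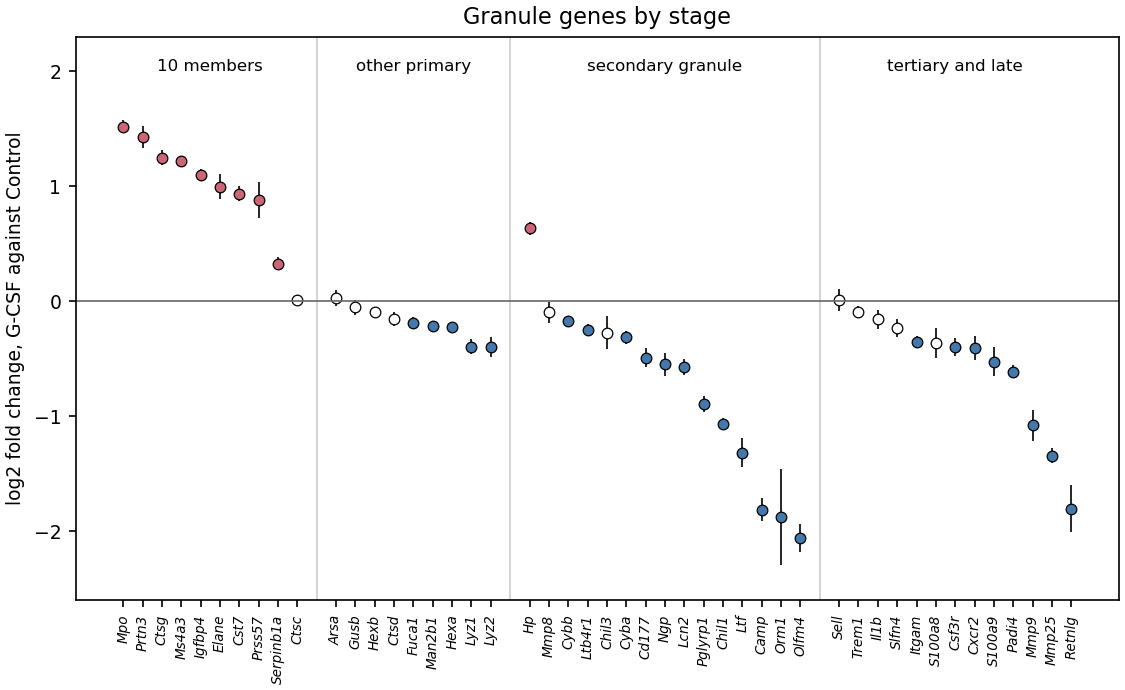
Log2 fold change (G-CSF against Control) of the 10 members and of the tested genes of other primary, secondary, and tertiary and late neutrophil lists, 1 point per gene with its standard error as the bar. Filled points passed an adjusted p of 0.05 (red higher, blue lower) and open points did not; 9 of 10 members were higher, and 12 of 15 secondary granule genes were lower.

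Genes of promyelocytes and earlier progenitors moved in both directions. Of 18 tested, 4 were higher (*Plac8*, *Muc13*, *Myc* and *Hmgn2*) and 4 were lower (*Kit*, *Cpa3*, *Cd93* and *Gstm1*), with a median of -0.28. *Kit* and *Cpa3* are also among the markers of mast cells and basophils given below, of which 6 of 8 were lower. *Plac8*, a small cysteine-rich protein of myeloid cells, stood at 195 and 183 FPKM in Control and at 490.4 and 479 FPKM with G-CSF. The groups were far apart, and the rise was 1.36 on the log2 scale (standard error 0.0486, adjusted p = 0.000149). *Muc13*, a membrane mucin of haematopoietic progenitors, was at 2.19 and 2.50 FPKM in Control and at 9.28 and 9.25 FPKM with G-CSF, a log2 change of 1.94 (adjusted p = 0.000685). *Hmgn2*, a nucleosome-binding protein and the most abundant of the list, rose by 0.19 (adjusted p = 0.0272). *Kit*, the receptor for stem cell factor on progenitors and mast cells, stood at 11.9 and 11.1 FPKM in Control and at 6.67 and 7.36 FPKM with G-CSF. It fell by 0.70 (adjusted p = 0.00571), and *Cd34*, a surface marker of progenitors, had a log2 fold change of 0.26 (adjusted p = 0.142).

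The 18 regulators of primary granule genes and receptors of the growth factors had a median of -0.08. Of them, 3 were higher (*Myb*, *Gfi1* and *Lmo2*) and 4 were lower (*Csf2ra*, *Csf3r*, *Cebpb* and *Cebpd*). Over all genes tested, 12.3% were higher and 11.1% lower. Fits that dropped 1 library kept these directions. They gave rises from 1.213 to 1.393 (*Myb*), 0.617 to 0.906 (*Gfi1*) and 0.26 to 0.353 (*Lmo2*). The falling genes ran from -0.494 to -0.411 (*Csf2ra*), -0.506 to -0.286 (*Csf3r*), -0.384 to -0.213 (*Cebpb*) and -0.397 to -0.189 (*Cebpd*). *Myb* encodes a transcription factor of proliferating progenitors that activates *Mpo* and *Elane*. It stood at 8.12 and 7.16 FPKM in Control and at 19.9 and 18.1 FPKM with G-CSF. Both G-CSF values were more than 2-fold above both Control values, a rise of 1.30 on the log2 scale (standard error 0.092, adjusted p = 0.00161). *Gfi1*, a repressor needed for neutrophil differentiation, was at 8.31 and 7.85 FPKM in Control and at 15.2 and 12.4 FPKM with G-CSF, a log2 change of 0.76 (adjusted p = 0.00758). *Cebpa*, a factor that commits progenitors to the granulocyte and monocyte lineages, had a log2 fold change of 0.23 (adjusted p = 0.0552). *Cebpe*, which drives secondary granule genes, stood at -0.02 on the log2 scale (standard error 0.102, adjusted p = 0.904). Its part in the falls of *Ltf* and *Camp* was not tested. *Spi1*, which encodes PU.1, had -0.18 (adjusted p = 0.0845). *Csf3r*, the receptor for G-CSF itself, stood at 50.2 and 48.3 FPKM in Control and at 34.6 and 40.3 FPKM with G-CSF and fell by 0.40 (adjusted p = 0.0169). *Csf2ra*, the ligand-binding chain of the GM-CSF receptor, fell by 0.45 (adjusted p = 0.00394), and its partner *Csf2rb*, the most abundant of the list, had -0.15 (adjusted p = 0.0668).

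Genes that fold, sort and package granule cargo changed by less than 2-fold. Of 25, 7 were higher and 4 were lower, with a median of -0.07, where 12.3% and 11.1% of all genes tested were higher and lower. Of these rises and falls, 2 and 0 passed whichever library was left out. *Hspa5* and *Calr*, which encode chaperones of the endoplasmic reticulum, were among the 7 that rose, and such chaperones were not tested as a group. *Hspa5* was at 369 and 364 FPKM in Control and at 451 and 451 FPKM with G-CSF, a log2 change of 0.30 (adjusted p = 0.00683), and *Calr*, which encodes calreticulin, a chaperone of myeloperoxidase precursors, rose by 0.27 (adjusted p = 0.0133). *Hax1*, whose loss causes severe congenital neutropenia, rose by 0.31 (adjusted p = 0.00895). *Srgn*, the core of the proteoglycan that retains elastase in granules, rose by 0.30 (adjusted p = 0.0181). *Cd63*, a granule membrane protein that binds the elastase precursor, fell by 0.21 (adjusted p = 0.0181). *Calr* did not pass without G-CSF replicate 2 (adjusted p = 0.0564), *Srgn* did not without Control replicate 2 or G-CSF replicate 1, and *Cd63* did not whichever library was left out (adjusted p from 0.0602 to 0.0731).

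Relatives of the members were compared with them. Of 8 tested peroxidases and peroxiredoxins, 1 was higher and 2 were lower, where 12.3% and 11.1% of all genes tested were higher and lower. The rise was that of *Prdx3* (0.28, adjusted p = 0.0147), and the falls were those of *Prdx5* (0.25, adjusted p = 0.0164) and *Epx*. When each library was left out, *Prdx3* ranged from 0.237 to 0.325 and *Prdx5* from -0.272 to -0.221 on the log2 scale. *Epx*, the eosinophil counterpart of *Mpo*, stood at 34.5 and 43.5 FPKM in Control and at 27.3 and 22.9 FPKM with G-CSF, a fall by 0.63 (adjusted p = 0.0178). Of 21 granzymes and mast cell proteases, relatives of the granule serine proteases, 11 were listed at 0 in every library and only *Mcpt8* and *Prss34* could be tested. Both are proteases of basophils, and both were lower, by 0.61 (adjusted p = 0.00479) and by 0.65 (adjusted p = 0.00598).

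Of 10 other tested inhibitors of granule serine proteases, 1 was higher (*Wfdc17*) and 3 were lower (*Serpinb10*, *Serpinb6a* and *Slpi*), with a median of -0.14. *Serpinb10* fell by 1.07 (adjusted p = 0.0263), which was 0.0627 without Control replicate 2 and 0.0619 without G-CSF replicate 1, and *Wfdc21*, the most abundant, had a log2 fold change of -0.08 (adjusted p = 0.407). Of 2 other cystatins tested, in a list that left out the stefin A family, *Cst3*, which encodes cystatin C, fell by 0.58 (adjusted p = 0.0095), and *Cstb* had -0.19 (adjusted p = 0.0681). Of 4 tested genes of the insulin-like growth factor system, 1 was higher, with a median of 0.57. This was *Stc2*, an inhibitor of the protease that cleaves *Igfbp4* protein, at 0.847 and 0.445 FPKM in Control and at 2.23 and 1.37 FPKM with G-CSF (log2 fold change 1.37, adjusted p = 0.0326). It did not pass without Control replicate 2 (adjusted p = 0.0793) or without G-CSF replicate 1 (adjusted p = 0.119). *Igfbp6*, the other binding protein tested, was at 0.759 and 0.456 FPKM in Control and at 1.63 and 1.07 FPKM with G-CSF and did not pass (log2 fold change 1.04, adjusted p = 0.0512). The protease gene itself, *Pappa*, was listed at 0 in every library, and *Pappa2* was at most at 0.009 FPKM. *Igf1r*, the receptor, had a log2 fold change of 0.11 (adjusted p = 0.418). Of 8 other MS4A genes tested, 0 passed in limma (2 at an unadjusted p under 0.05, and 0 without the trend), the median was -0.34, and the most abundant, *Ms4a6d*, had -0.31 (adjusted p = 0.235). The lowest p of that family were those of *Ms4a4b*, at -0.64 (adjusted p = 0.0602), and *Ms4a6b*, at -0.62 (adjusted p = 0.104).

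Markers of other cell types moved with the comparison. Of 8 tested markers of mast cells and basophils, 6 were lower and 2 did not pass. Their summed level was 164.5 and 175.8 FPKM in Control and 99.2 and 112 FPKM with G-CSF, *Mcpt8* was the most abundant, and *Cma1* and *Tpsb2* were at 0 in 3 of the libraries. *Hdc*, which makes histamine, fell by 1.14 (adjusted p = 0.0113). Of 7 tested eosinophil markers, 3 were lower, and the sum was 567 and 673 FPKM in Control and 375 and 338 FPKM with G-CSF. *Prg2* was the most abundant, and *Ear6* fell by 1.89 (adjusted p = 0.000532). Of 9 tested dendritic cell markers, 5 were lower, and the sum, led by *Cd74*, was 3483 and 2969 FPKM in Control and 1928 and 1552 FPKM with G-CSF. *H2-Ab1* fell by 1.09 (adjusted p = 0.00483) and *H2-Eb1* by 1.04 (adjusted p = 0.00564). The part of these cells in the changes of the granule genes was not tested.

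Of 8 macrophage markers, 4 were lower, and the sum, led by *Mrc1*, was 189 and 221 FPKM in Control and 135 and 158 FPKM with G-CSF. *Adgre1*, which encodes F4/80, fell by 0.34 (adjusted p = 0.0271) and *Mertk*, a receptor for dying cells, by 0.52 (adjusted p = 0.0277), and 0 of the 4 falls passed whichever library was left out. Of 5 tested monocyte markers, *F13a1* was higher (0.32, adjusted p = 0.0111) and *Csf1r* lower (a fall by 0.23, adjusted p = 0.0187). Their sum, led by *Ly6c2*, was 1421 and 1473 FPKM in Control and 1303 and 1372 FPKM with G-CSF. The 6 neutrophil markers are all genes of the secondary granule or the tertiary and late lists above, and 5 were lower. Their sum was led by *S100a8*, which did not pass (log2 fold change -0.36, adjusted p = 0.0872), and was 75950 and 65510 FPKM in Control and 50760 and 50690 FPKM with G-CSF. *Ly6g* was not analysed here. Lymphoid, erythroid and stromal markers were low. The sum of natural killer and T cell markers was at most 16.9 FPKM, most of it *Nkg7*, which is also in the promyelocyte list and stood at 10.4 and 6.99 FPKM in Control and at 15.1 and 10.3 FPKM with G-CSF (adjusted p = 0.136), and *Ncr1* was listed at 0. The sum of B cell markers, led by *Cd79b*, was at most 5.51 FPKM, and that of erythroid markers, led by *Hba-a1*, 1.57 FPKM. That of stromal markers was at most 2.38 FPKM, led by *Col1a1* in both Control libraries and by *Lepr* in both G-CSF libraries. Within these low levels, *Cd8a* (a fall by 1.05, adjusted p = 0.0275), *Cd79a* (by 0.98, adjusted p = 0.0192) and *Col1a1* (by 1.66, adjusted p = 0.00799) were lower, of which *Col1a1* alone passed whichever library was left out. *Ms4a1*, another B cell marker, had -0.88 (adjusted p = 0.151).

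*Prss57*, *Prtn3* and *Elane* lie in the same stretch of chromosome 10 (GRCm38). *Prss57* occupies 79781474 to 79790961 on the minus strand, *Prtn3* 79874476 to 79883174 and *Elane* 79886247 to 79888215, both on the plus strand. Between *Prss57* and *Prtn3* are 83514 bases, which hold *Palm*, *Misp*, *Ptbp1* and part of *Plppr3*, and between *Prtn3* and *Elane* are 3072 bases with no annotated protein-coding gene. *Prss57* overlaps *Fstl3* on the other strand, and the GENCODE start of *Prtn3* overlaps *Plppr3*. Whether the counting used the strand is not given in the sources used here, and without it reads of such overlapping pairs cannot be told apart. *Fstl3* was at most at 0.299 FPKM, and *Plppr3* was not analysed here.

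The neighbours of these proteases were examined next. Of 13 tested genes within 100 kb of these proteases, 4 were higher and 1 was lower, with a median of 0.18. Over all genes tested, 12.3% were higher and 11.1% lower. The rises were those of *Ptbp1*, *Rnf126*, *Palm* and *Wdr18* and the fall was that of *R3hdm4*, all by less than 2-fold. *Ptbp1*, which encodes a splicing regulator, was at 137 and 137 FPKM in Control and at 174 and 178 FPKM with G-CSF, a log2 change of 0.36 (adjusted p = 0.00479). *Palm*, nearest to *Prss57* on that side, rose by 0.37 (adjusted p = 0.0144), and *R3hdm4* fell by 0.29 (adjusted p = 0.0107). The rise of *Palm* ranged from 0.316 to 0.429 when each library was left out. *Bsg*, the most abundant neighbour, had a log2 fold change of 0.18 (adjusted p = 0.0675). *Cfd*, which encodes complement factor D, a serine protease next to *Elane*, was listed at 0 in both Control libraries and at 0.109 and 0.086 FPKM with G-CSF. *Misp* was at most at 0.036 FPKM, and *Gzmm*, another serine protease gene of the region, lay between 0.613 and 0.667 FPKM in all 4 libraries. The difference in size of change between the proteases and their neighbours was not tested.

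**Figure D3:**
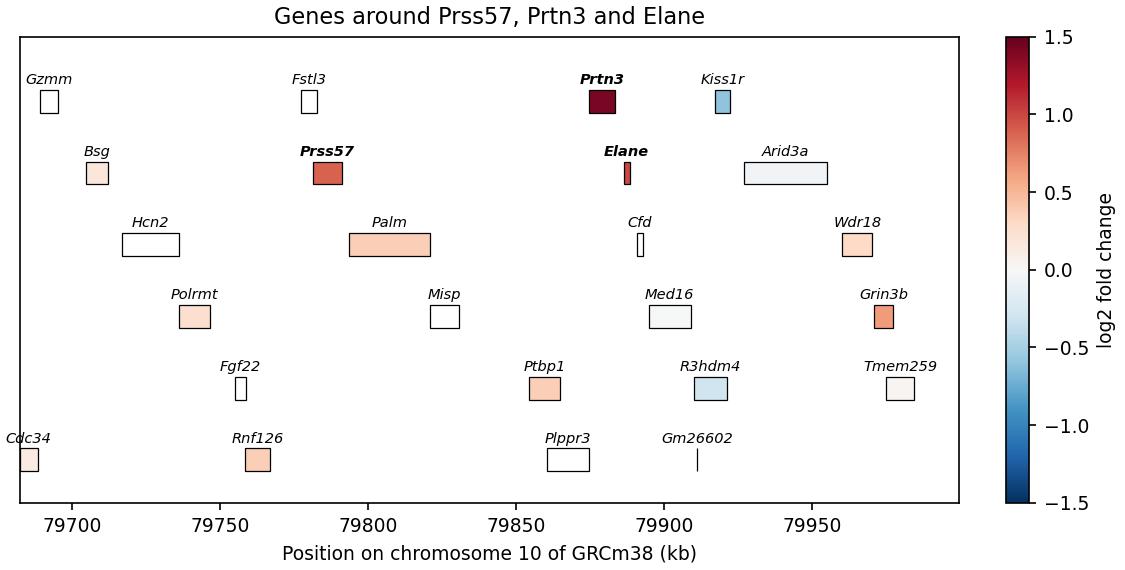
Map of protein-coding genes within 100 kb of *Prss57*, *Prtn3* and *Elane* on chromosome 10 of GRCm38, drawn to scale along the x axis in kb and coloured by log2 fold change (G-CSF against Control). White boxes were not tested or not analysed, the vertical position has no meaning, and the members (bold) have 0.88, 1.42 and 0.99 in order of position.

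Because most members were higher with G-CSF, the 250 bases before the members' starts were searched on both strands for motifs of known regulators. Windows from RefSeq (GRCm38.p6) were found for 8 of the 10 genes, all but *Prss57* and *Serpinb1a*. The PU.1 motif GAGGAAGT occurred in 4 of the 8, *Mpo*, *Elane*, *Prtn3* and *Ctsc*, and in 2.44% of all 32851 promoter windows. Its overlapping form AGAGGAAG occurred in *Mpo* and *Ctsg*, and in 3.67% of all windows. The MYB motif AACGG was found in 3 of the 8 (*Elane*, *Prtn3* and *Igfbp4*) and in 14.5% of all windows, and AACTG in 5 of the 8 and in 39.1%. The RUNX motif TGTGGT was found in *Ctsg* and *Cst7* (14.0% of all windows) and TATAAA in *Ctsg* and *Igfbp4* (12.4%). The C/EBP core TTGCNNAA was found in 0 of the 8 and in 9.56% of all windows, and the GATA motif AGATAAG in 0 and in 2.74%. A match is a description of letters and not of a bound site, and a missing match says only that these letters are not in this window.

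The stretches around GAGGAAGT are shown for the 4 genes that hold it, because they include 3 that rose and *Ctsc*, which did not pass the test. Each is printed on the strand of the gene, 5′ to 3′, outside annotated exons, with the motif in capitals. In *Ctsc* the match is on the opposite strand and reads as its reverse complement. The stretches lie at chr11:87793534-87793580 (*Mpo*), chr10:79886187-79886246 (*Elane*), chr10:79879532-79879613 (*Prtn3*) and chr7:88277894-88277981 (*Ctsc*), all on the plus strand of GRCm38.p6. The motif begins 224, 85, 95 and 151 bases before the RefSeq start. For *Mpo*, *Elane* and *Prtn3* that start (87793784, 79886312 and 79879667) lies downstream of the GENCODE start given above, so the stretch of *Prtn3* lies inside its GENCODE gene. In *Elane* and *Prtn3*, AACGG begins 50 and 55 bases before the RefSeq start, inside the GENCODE gene. It lies past the end of the printed stretch of *Elane* and runs past the end of that of *Prtn3*.
Mpo: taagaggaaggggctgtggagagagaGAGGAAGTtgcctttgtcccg
Elane: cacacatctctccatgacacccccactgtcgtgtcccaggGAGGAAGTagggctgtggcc
Prtn3: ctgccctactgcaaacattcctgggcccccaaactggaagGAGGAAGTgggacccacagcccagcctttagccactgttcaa
Ctsc: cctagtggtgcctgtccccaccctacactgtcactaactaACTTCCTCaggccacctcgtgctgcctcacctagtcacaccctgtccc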

How the data were processed

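RNA was sequenced from 2 Control and 2 G-CSF cultures of *in vitro* MDSCs with a stranded mRNA kit and single-end reads of 75 bases. The authors deposited 1 table of FPKM per library, used as given; the unit was inferred from the values, since the study's text names none. Of 1913 low values, 66.8% lay within 0.05 of a whole number of reads, against 10.0% by chance, which gave the depths. The submitters' processing notes name TopHat2 2.0.13, Bowtie2 2.2.3, SAMtools 0.1.19, Cufflinks 2.2.1 and the mm10 build, without their roles; the annotation is not given in the sources used here. FPKM summed to 670353.9 and 641609.7 (Control) and to 642376.9 and 644938.9 (G-CSF).

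Transcript lengths came from GENCODE M21 (GRCm38) for 23990 of 24346 genes and were shortened by 210 bases to estimate reads. Tested genes had 10 or more estimated reads in 2 libraries and a total of 15 or more; small RNA genes, genes whose longest transcript is no longer than 210 bases, and 356 genes without a length, were left out. Differences were fitted on log2(FPKM + 0.1) with limma 3.58.1 in R 4.3.3 (lmFit, eBayes with trend, two-sided, no replicate block), with Benjamini-Hochberg adjustment over all 12121 genes. Fold changes are on that scale, which understates changes of low genes. With 2 against 2, an exact permutation test of a single gene cannot give a p below 0.333. The main fit and the replicate block were tested on simulated data in which all genes had the same dispersion of reads. The fit without the trend was not part of that test, which therefore cannot decide between the fits with and without it. Tables and figures were made with python 3.11.15, pandas 2.3.3 and matplotlib 3.10.9.

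The members and the 25 lists were chosen with earlier results of these data known, as were the filter and the pseudocount; the lists were written from general knowledge. The result of 1 list is not reported here. Named were all members and, from each list, up to 4 genes past 2-fold and adjusted p 0.05 with the smallest p (or else the 2 with the smallest p) and the most abundant gene. Further genes were named after their values were seen, to account for small counts or known roles. Other pseudocounts, filters, scalings, the replicate block, eBayes without trend and leaving out each library were tried.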

Additional observations from a re-analysis of the deposited data

How the results depend on the processing

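The members' fold changes, their counts and median, and the counts over all genes were recomputed under 13 alternatives. The other listed genes were recomputed only with both scalings, without the trend and with each library left out, and ratios, summed shares and motif counts have no alternative. Of the members' fold changes so obtained, 123 kept their direction and their side of an adjusted p of 0.05; 6 lost the call, all with eBayes without trend (adjusted p from 0.0503 to 0.0799, with fold changes as before), and *Ctsc* changed sign with upper-quartile scaling, at -0.006. Without the trend, the members called (past 2-fold and adjusted p) and the members past adjusted p numbered 3 and 3 instead of 5 and 9, the genes called over all genes 25 (64.0% higher, against 37.6%) instead of 173, and the genes past adjusted p 26 instead of 2841. The cause was not tested. The genes called numbered 76 with at least 1 FPKM in every library, which tests fewer genes (10486), and 57 with a pseudocount of 1 FPKM, which shrinks fold changes of low genes.

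With each library left out in turn, members called ranged from 5 to 8, members past adjusted p stayed at 9, the members' median log2 fold change ranged from 0.985 to 1.128, genes called from 151 to 187 and genes past adjusted p from 1447 to 1901. These fits leave 1 library in a group, which is assumed to vary like the other group. The sources used here do not say whether a replicate number shared between groups marks shared mice or culture days. Deviations of same-numbered libraries from their group means correlated at 0.225 across genes. Component 2 of the variance held 23.3%, and which libraries it separates is not given here. With the replicate block, 194 genes were called, 3937 passed adjusted p, and members called and past adjusted p were 5 and 9. Depth limits genes near 0 FPKM, such as *Bpi*, *Cfd* and most granzymes, whose differences could not be detected.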
